A study of Mus musculus with 20 samples.

Results

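Among 35080 distinct rows of a mouse epidermis array table, 22 were raised at least 2-fold by imiquimod on day 4, on the scale given next, were still raised in skin recovering from imiquimod, and were not raised by wax stripping, in Grhl3 cKO mice and in Grhl3 WT mice alike. A row is a probe set, a group of array probes read out as 1 intensity. The members were chosen on L = log2(intensity + 16), averaged over the 2 arrays of each group. The imiquimod difference (injured minus unaffected imiquimod skin) had to be at least 1, the recovery difference (injured minus unaffected recovery skin) at least 0.5, and the wax difference (wax-stripped minus unaffected recovery skin) under 0.4, each in both genotypes. These differences chose the members, so for the members they are given as a description, and nothing is read from counts of calls in them. Members are called here by rank, from the largest to the smallest mean imiquimod difference.

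The arrays measured total RNA of dorsal epidermis of C57B6 mice, separated from the dermis with dispase after the back had been shaved. Grhl3 cKO and Grhl3 WT mice were compared, and the titles of both genotypes carry Krt14cre, a Cre recombinase driven by the keratin 14 promoter of basal keratinocytes. Each genotype had 5 groups of 2 arrays, 20 arrays in all: wax-stripped skin of males on day 4, injured and unaffected areas of imiquimod-treated females on day 4, and injured and unaffected areas of recovering males on day 8. Replicates are called biological in the labels, which give neither age nor whether both areas came from the same mice. Wax-stripped skin has no untouched control of its own among these groups, so its difference from unaffected recovery skin mixes wax, day and experiment, which cannot be told apart. Imiquimod skin and the other groups also differ in labelled sex.

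The epidermis is a layered sheet of keratinocytes that divide at its base and differentiate into a dead outer barrier. Imiquimod activates Toll-like receptor signalling in immune cells of the skin and is used in mice to produce a psoriasis-like, interleukin-driven inflammation with thickening and disturbed differentiation of the epidermis. Wax stripping tears off the outer barrier and calls up repair without an added immune stimulant, and Grhl3 is a transcription factor of keratinocyte differentiation and barrier repair. Inflamed epidermis also takes in leukocytes, and in bulk RNA more cells of a type cannot be told apart from more RNA per cell.

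No member is given a gene name. The platform's probe table pairs 15 of the 22 with a single symbol, but the values did not bear the pairing out: rows labelled as ribosomal protein genes, which are high in every tissue, had a median at percentile 54.4 of mean signal (212 rows), and rows labelled as olfactory receptors, which are silent in skin, had theirs at percentile 54.5 (979 rows). Pairs of rows with 1 symbol correlated over the arrays at a median r of only 0.08 (8725 pairs). The level of Grhl3 and markers of keratinocytes or leukocytes could therefore not be read.

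The arrays were alike in scale, with median intensities of 169 to 200 (199.9) units, and replicate pairs correlated at 0.983 to 0.992 over all distinct rows. The 4 arrays of injured recovery skin, labelled male, went against that label. In 5 rows that parted the 8 arrays labelled female from the 8 arrays of wax-stripped and unaffected recovery skin labelled male by 3.67 to 6.74 on the log2 scale, all 4 lay on the female side. None of these 5 rows (0) is a member. Every recovery difference here sets these arrays against arrays on the male side, and the part of sex or of a mixed-up label in it was not tested. Without the recovery condition the rule kept 58 rows, the 22 members and 36 that missed the recovery threshold.

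The module was a small remainder of a large shared response. Imiquimod raised 538 rows by at least 1 on the log2 scale in both genotypes, and 464 of these met the recovery condition too. Wax-stripped skin was also raised past its limit of 0.4 in 442 of the 464, which left 4.74% as members. In 379 of them the wax limit was passed in both genotypes, in 61 in cKO mice only and in 2 in WT mice only. The median wax difference of these 442 rows was 1.26 in cKO mice and 0.95 in WT mice, and that of the members 0.13 in cKO mice and -0.09 in WT mice. Over all distinct rows it was -0.09 in cKO mice and -0.10 in WT mice. By the median the members thus lay near the bulk of the table in WT mice and above it in cKO mice. The rule required only that they stay under 0.4.

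**Figure D1:**
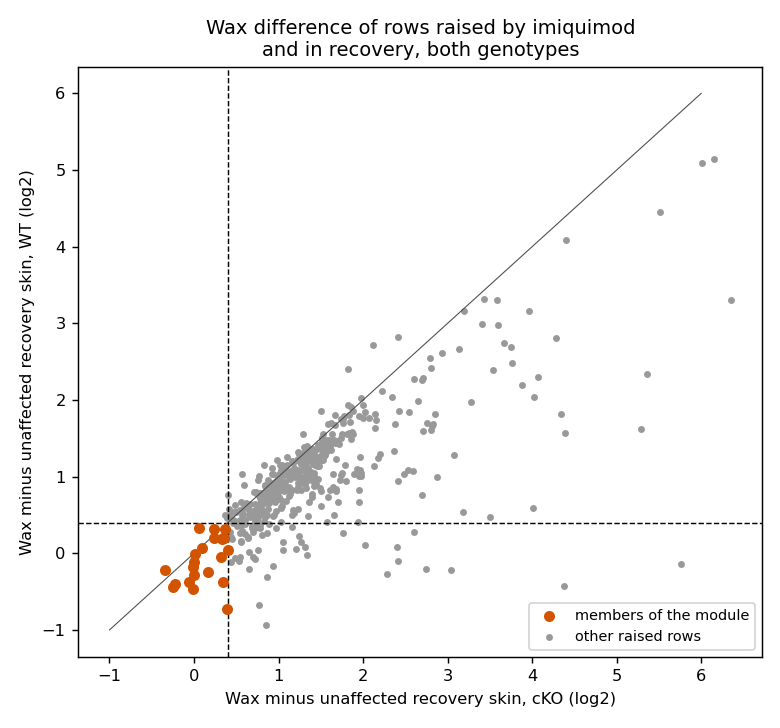
Wax difference in cKO mice (x axis) and in WT mice (y axis), log2 scale, of the 464 rows raised by imiquimod and in recovery in both genotypes. The 22 members (orange) fill the corner below both dashed limits of 0.4; 61 of the other rows (grey) lie below the limit for WT mice only and reach far to the right of it in cKO mice. The solid line marks equal differences.

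Before recovery or wax is considered, the members were moderately rather than strongly raised by imiquimod. The imiquimod difference ranged from 1.04 to 4.49 in cKO mice (median 1.63) and from 1.01 to 3.79 in WT mice (median 1.40). By the mean over genotypes 3 members reached 3 or more, 3 lay between 2 and 3, and 16 lay under 2. The other 442 raised rows had a median of 1.55 by this mean, close to the 1.496 of the members. In unaffected skin the members spanned dim to bright rows: 4 averaged under 64 intensity units over the 8 unaffected arrays, 10 lay between 64 and 256, and 8 lay between 256 and 1024. Their median was 115 units, against 226 in the other raised rows, a description only, since dim rows also vary more.

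**Figure D2:**
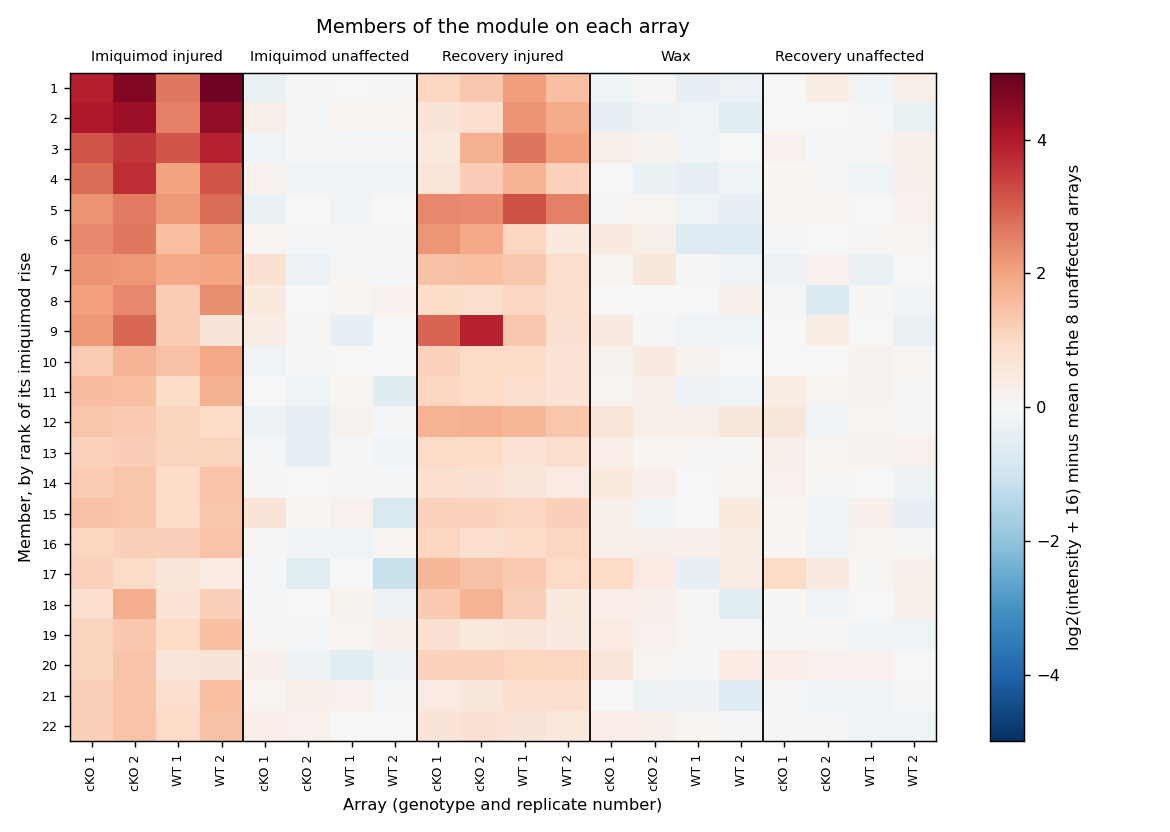
Each row of the map is a member, by rank, and each column an array, grouped by condition with the 4 arrays of each condition side by side. Colour gives log2(intensity + 16) minus that member's mean over the 8 unaffected arrays. Injured imiquimod and injured recovery arrays are in warm colours throughout, strongest in ranks 1 to 4 on day 4; wax-stripped arrays stay near the pale colour of unaffected skin.

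Ranks 1 to 4 form the steep end of the module, with large imiquimod differences and a smaller excess in recovery. The rank 1 member, row 10490259 of the table, read 1150.2 and 1983 units in injured imiquimod skin of cKO mice, against 45.3 and 59.0 units in unaffected skin of these mice. In WT mice it read 485 and 2329 units in injured imiquimod skin, against 64.001 and 60.7 units in unaffected skin. All injured arrays were far above all unaffected ones, but the injured WT arrays were themselves far apart. In injured recovery skin it had 153 and 185 units in cKO mice and 328 and 211 units in WT mice, against 63.7 and 86.0 units in unaffected recovery skin of cKO mice and 56.8 and 83.1 units in that of WT mice. Wax-stripped skin was as low as unaffected skin or lower, at 53.3 and 67.3 units in cKO mice and 44.3 and 48.5 units in WT mice.

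The rank 2 member was brighter and had the same shape. It read 2806 and 3347 units in injured imiquimod skin of cKO mice, against 199 and 147 units in unaffected skin. In WT mice the injured arrays had 999 and 3719.9 units, against 169.6 units in each of the unaffected arrays. Again the WT arrays of injured skin differed widely from each other while the unaffected ones hardly differed. Injured recovery skin had 261 and 294 units in cKO mice and 822 and 611 units in WT mice, so that the genotypes did not overlap there. Unaffected recovery skin had 159 units on each cKO array and 153 and 124 units in WT mice, and wax-stripped skin 115 and 129 units in cKO mice and 133 and 102 units in WT mice.

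The rank 3 member reached 1309 ± 270 units (SD, n = 2) in injured imiquimod skin of cKO mice, against 101 ± 9.45 units in unaffected skin, and 1489 ± 502 units in that of WT mice, against 108 ± 0.707 units (SD, n = 2 each). In injured recovery skin it had 164 and 429 units in cKO mice and 808 and 522 units in WT mice, and again the genotypes did not overlap. The rank 4 member was dimmer, at 626 ± 276 units in injured and 50.9 ± 10.8 units in unaffected imiquimod skin of cKO mice (SD, n = 2 each). In all of ranks 1 to 4 the recovery difference of cKO mice was 18.4% to 30.5% of their imiquimod difference on the log2 scale, and in WT mice 45.3% to 65.9%. In cKO mice the recovery differences of ranks 1, 2 and 4 were 1.03 ± 0.49, 0.74 ± 0.40 and 0.85 ± 0.36 (SE). They met the limit of the rule, but limma did not call them raised (adjusted p = 0.0973, 0.134 and 0.0657).

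Rank 5 was raised nearly as far in recovery as on day 4. It read 302 and 381 units in injured imiquimod skin of cKO mice, against 37.5 and 52.2 units in unaffected skin, and 289.7 and 449.8 units in WT mice, against 45.4 and 52.3 units. In recovery the injured areas had 339 and 337 units in cKO mice and 604 and 374 units in WT mice, against 59.5 and 55.6 units in unaffected areas of cKO mice and 53.0 and 62.0 units in those of WT mice. Its recovery difference was 88.6% of its imiquimod difference in cKO mice and 108% in WT mice. After wax stripping it had 54.9 and 59.3 units in cKO mice, close to unaffected skin, and 42.9 and 31.9 units in WT mice, below both unaffected WT recovery arrays.

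Rank 9, row 10362102 of the table, had the highest ratio of the recovery to the imiquimod difference, 129% over both genotypes. It read 965 and 1845 units in injured recovery skin of cKO mice, against 111 and 153 units in unaffected recovery skin, and 564 and 936 units in injured imiquimod skin, against 151 and 119 units in unaffected skin. In WT mice it moved far less, with 318 and 206 units in injured and 112 and 86.7 units in unaffected recovery skin, and 299 and 189 units in injured and 82.9 and 115 units in unaffected imiquimod skin. After wax stripping it had 161 and 108 units in cKO mice and 99.7 and 96.4 units in WT mice, within or near the range of unaffected skin of the same genotype.

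Rank 12 was the brightest member in unaffected skin, and rank 13 the next. Rank 12 had 2490.3 and 2361 units in injured and 769 and 698 units in unaffected imiquimod skin of cKO mice, and 2041 and 1917 units against 1061 and 885 units in WT mice. In injured recovery skin it was higher still, with 3174 and 3236 units in cKO mice and 2982 and 2457 units in WT mice, against 1408 and 850.1 units in unaffected areas of cKO mice and 1029 and 992 units in those of WT mice. It was 1 of 2 members, with rank 9, whose mean recovery difference exceeded its mean imiquimod difference (108%). Rank 13 had 1262 ± 47.7 units in injured and 459 ± 80.4 units in unaffected imiquimod skin of cKO mice, and 1216 ± 3.41 units against 498 ± 42.9 units in WT mice (SD, n = 2 each).

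**Figure D3:**
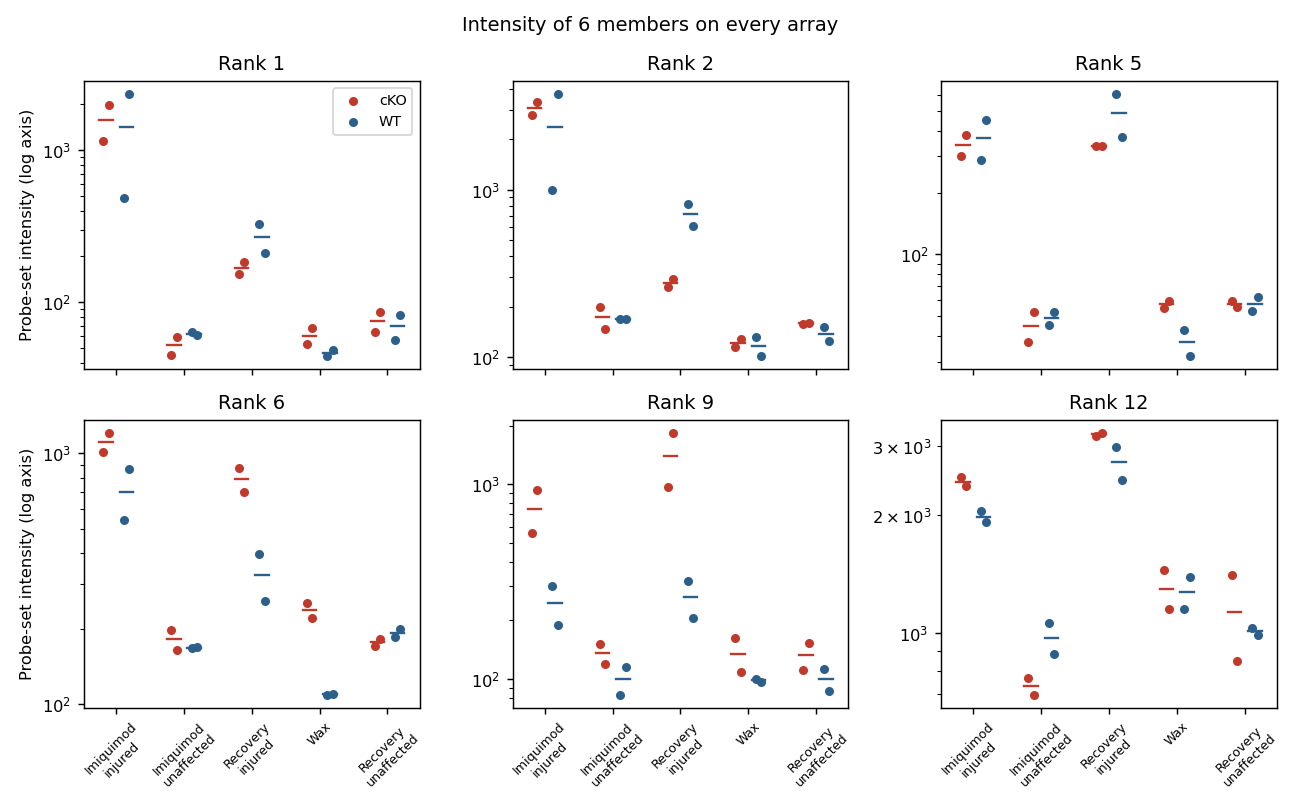
Probe-set intensity (log axis) of ranks 1, 2, 5, 6, 9 and 12 on every array, with cKO mice left (red) and WT mice right (blue) in each condition. Points are arrays and short lines the mean of the 2 arrays. In injured recovery areas both cKO points lie below both WT points in ranks 1 and 2, and above them in ranks 6 and 9.

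The 14 members not described singly so far, ranks 6 to 8, 10, 11 and 14 to 22, had imiquimod differences of 1.04 to 2.52 in cKO mice and 1.01 to 1.95 in WT mice. The dimmest was rank 18, at 43.1 units over the unaffected arrays, with 87.1 and 189 units in injured imiquimod skin of cKO mice, against 40.4 and 44.0 units in unaffected skin. In WT mice it had 79.5 and 118 units in injured imiquimod skin, against 49.6 and 32.0 units, and it was 1 of 2 members, with rank 17, too dim to be tested. The injured and unaffected arrays did not overlap in any of the 22 members, in either genotype, for imiquimod or for recovery. The rule favours this, the share of all rows without overlap was not counted, and nothing is read from it. Of the 20 members bright enough to be tested across all rows, limma called 20 raised by imiquimod in cKO mice and 20 in WT mice, where 17.7% and 16.1% of all rows were called raised. For recovery it called 17 in cKO mice and 19 in WT mice, with 23.5% and 16.1% of all rows called raised. Those not called were ranks 1, 2 and 4 in cKO mice and rank 11 in WT mice. Since the rule used these contrasts, nothing is read from the counts.

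Values near the limits show how sharp the choice is. The smallest imiquimod differences inside were 1.04 in cKO mice (rank 22) and 1.01 in WT mice (rank 20), and the nearest rows that failed only there had 0.99 and 0.98. The lowest recovery differences inside were 0.62 in cKO mice (rank 21) and 0.57 in WT mice (rank 13), with 0.41 and 0.49 just outside. The highest wax differences inside were 0.40 in cKO mice (rank 7) and 0.33 in WT mice (rank 15), with 0.43 and 0.46 just outside. In cKO mice 8 members had a wax difference of 0.3 or more, and both wax-stripped arrays lay above both unaffected recovery arrays in 8, against 2 in which they lay below. In WT mice the wax-stripped arrays lay above in 5 members and below in 8. The share of all rows with arrays so parted was not counted, and the rule used this contrast, so nothing is read from these counts.

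The name "unmoved by wax" holds only in part, because the rule has no lower limit. In cKO mice 8 members had a wax difference below 0, with 0 under -0.4. In WT mice 13 members were below 0, and ranks 1, 5 and 6 were under -0.4 (-0.45, -0.47 and -0.73). In cKO mice rank 6 read 253 and 220.1 units after wax stripping, against 170.2 and 183 units in unaffected recovery skin. In WT mice it went the opposite way: it read 109 and 110.1 units in wax-stripped WT skin, against 186 and 199 units in unaffected WT recovery skin, with arrays that did not overlap. Limma called 0 of the 20 tested members higher after wax in either genotype, where 12.1% of all rows in cKO mice and 10.8% in WT mice were. It called 1 member lower, rank 6 in WT mice (limma adjusted p = 0.0247), where 2926 of 26310 rows were called lower. The rule used this contrast, and nothing is read from the counts.

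Wax-stripped skin was next set against unaffected imiquimod skin, which is also day 4 but from females. The comparison is not independent of the rule: the wax condition used the same wax-stripped arrays, and the imiquimod condition the same unaffected arrays. In cKO mice the median difference of the 20 tested members was 0.30 (all rows 0.01), and limma called 2, ranks 12 and 13, higher (0.80 ± 0.19 and 0.47 ± 0.11, SE, Benjamini-Hochberg adjusted p = 0.0085 and 0.00917), against 10.8% of all rows. In WT mice the median was -0.02 (all rows -0.02), and limma called 0, with 4 at an unadjusted p under 0.05 (34.2% of all rows), where it called 19% of all rows. The 2 calls in cKO mice became 0 without wax-stripped cKO replicate 1 or without unaffected imiquimod cKO replicate 2, and 4 after quantile normalization.

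The same 2 members also differed between the unaffected areas. Rank 12 had 1408 and 850.1 units in unaffected recovery skin of cKO mice, against 769 and 698 units in unaffected imiquimod skin (difference 0.57 ± 0.19, SE, limma adjusted p = 0.0487). Rank 13 had 665 and 611 units, against 516 and 402 units (0.47 ± 0.11, SE, adjusted p = 0.0120). This is 2 of 20 members, where 11% of all rows were called higher. In WT mice 0 members were called (3 at an unadjusted p under 0.05, as were 24.0% of all rows), where 7.39% of all rows were. Both calls were lost without unaffected recovery cKO replicate 1 (adjusted p = 0.407 and 0.0749) and without unaffected imiquimod cKO replicate 2 (adjusted p = 0.142 and 0.0756), where 1 other member was called lower. The choice of members favours low values in both kinds of unaffected skin.

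Recovery was then compared with day 4 directly, as the recovery difference minus the imiquimod difference of the same genotype. In 18 of 20 tested members of cKO mice and 17 of 20 of WT mice the recovery difference was the smaller one, with medians of -0.51 in cKO mice and -0.62 in WT mice (all rows 0.00 and -0.02). The rule itself leans this way, since it asks for 1 on day 4 and 0.5 in recovery; the 433 other raised rows bright enough to be tested, chosen with the same 2 thresholds, had medians of -0.23 and -0.21. It is also built from the very values that chose the members, so the calls are not independent of the choice. In cKO mice 6 members were called lower in recovery, ranks 1, 2, 3, 4, 13 and 14, where 5.21% of all rows and 8.78% of the other raised rows were. In WT mice 3 members were called lower, ranks 6, 10 and 13, where 2.28% of all rows and 10.2% of the other raised rows were.

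Rank 13, called in both genotypes, had 1091 and 1062 units in injured recovery skin of cKO mice and 888 and 967 units in that of WT mice, all below the 4 injured imiquimod arrays. Rank 10 had 212 and 165 units in injured recovery skin of WT mice, against 297 and 418 units in their injured imiquimod skin. Rank 14 had 877 and 840.4 units in injured recovery skin of cKO mice, against 1207 and 1335 units in their injured imiquimod skin. In none of the 3 did the injured areas of the 2 times overlap. The share of all rows without such overlap was not counted, and nothing is read from it. The tested difference also takes in the unaffected areas of both times. It was largest in rank 1 of cKO mice, at -3.47 ± 0.70 (SE, limma adjusted p = 0.00996). Rank 2 followed with -3.30 ± 0.56 (adjusted p = 0.00481), rank 3 with -2.42 ± 0.48 (adjusted p = 0.00899) and rank 4 with -2.36 ± 0.51 (adjusted p = 0.0136). Ranks 13 and 14 had smaller differences, -0.70 ± 0.16 and -0.66 ± 0.20 (SE, adjusted p = 0.0165 and 0.0462). The rank 14 call was lost with no filter and with the replicate number as a block (limma adjusted p = 0.0614 and 0.0525). It also did not hold in any fit that left out 1 array of the comparison, where the difference was -0.57 to -0.75. In WT mice ranks 1 to 4 had smaller differences that were not called, from -2.07 ± 0.70 in rank 1 to -1.15 ± 0.56 in rank 2 (SE, adjusted p = 0.0866 to 0.22). The members called in WT mice were rank 6 (-1.25 ± 0.29), rank 10 (-0.99 ± 0.24) and rank 13 (-0.70 ± 0.16, SE, adjusted p = 0.0218, 0.0267 and 0.0189). Ranks 5, 9 and 12, with the highest ratios of the recovery to the imiquimod difference, were not called in either genotype, with differences of -0.29 to 0.90 in cKO mice and 0.09 to 0.39 in WT mice.

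Single arrays weigh on these counts. In cKO mice the 6 calls became 3 without injured imiquimod replicate 2 or injured recovery replicate 1. Without injured imiquimod WT replicate 1 the count in WT mice became 10, and without replicate 2 it became 1. It became 0 without unaffected imiquimod replicate 2 or either unaffected recovery array of WT mice, 1 without injured recovery WT replicate 2, and 1 with only the arrays of the comparison. Injured imiquimod cKO replicate 2 was the brighter array in 17 of 22 members, by a median of 0.24 on the log2 scale, while 48.3% of all rows were brighter on it. Injured imiquimod WT replicate 2 was the brighter array in 18 of 22 members, by a median of 0.49 on the log2 scale, while 48.2% of all rows were brighter on it. In injured recovery skin of WT mice replicate 2 was the brighter one in 3 of 22, while 53.2% of all rows were brighter on it. The part of these arrays in the members' imiquimod differences was not tested beyond leaving each out.

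**Figure D4:**
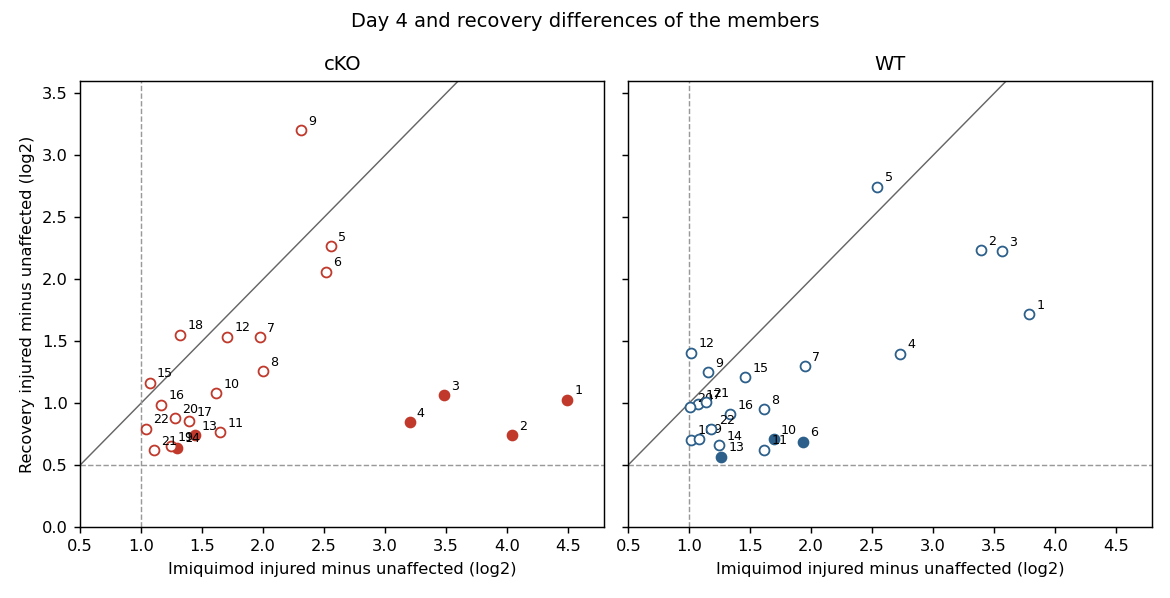
Recovery difference (y axis) against imiquimod difference (x axis), log2 scale, of the 22 members in cKO mice (left) and WT mice (right), numbered by rank. Filled points passed the limma test of the recovery minus the imiquimod difference (6 in cKO mice, 3 in WT mice), the solid line marks equality and dashed lines the limits of the rule. Ranks 1 to 4 lie far below the line in cKO mice; rank 9 lies above it.

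The genotypes were compared within each condition, a contrast that the rule did not use, although it shares all arrays with the rule and the requirement of both genotypes limits how far they can part. In injured recovery skin 2 of 20 tested members were called higher in cKO than in WT mice and 0 lower, where 0.722% of all rows were called higher and 0.277% lower. They were rank 9, at 965 and 1845 units in cKO mice against 318 and 206 units in WT mice, and rank 6, at 877 and 704 units in cKO mice against 395 and 257 units in WT mice. The arrays of the genotypes did not overlap in either, but the share of all rows so parted was not counted. The differences were 2.31 ± 0.33 and 1.26 ± 0.21 (SE, limma adjusted p = 0.00398 and 0.0101). Of the 433 other raised rows 4.85% were called higher there.

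Other members leaned the opposite way in the same skin without passing the test. Rank 2 differed by -1.31 ± 0.40 and rank 3 by -1.23 ± 0.34 (SE, adjusted p = 0.168 and 0.124), both lower in cKO mice, with arrays that did not overlap. In all, 12 of the 20 were higher and 8 lower in cKO mice, with a median of 0.10 (all rows 0.01). The calls for ranks 6 and 9 were both lost without injured recovery WT replicate 2 (adjusted p = 0.152 and 0.0693) and with only the arrays of the comparison (adjusted p = 0.137 and 0.124), and that for rank 6 also without injured recovery cKO replicate 1 (adjusted p = 0.164). In every fit both kept their direction. In the rows that parted the labelled sexes, both the cKO and the WT arrays of injured recovery skin lay on the same side.

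In the other conditions limma called 0 members by genotype. In injured imiquimod skin 0.137% of all rows were called, and 3 members passed an unadjusted p under 0.05, as 11.6% of all rows did, rank 9 among them, with 564 and 936 units in cKO mice against 299 and 189 units in WT mice (1.55 ± 0.33, SE, adjusted p = 0.128). In wax-stripped skin 17 of 20 were higher in cKO mice, with a median of 0.25, close to the 0.24 of the other raised rows and above the 0.01 of all rows. There 0.27% of all rows were called, and 3 members passed an unadjusted p under 0.05, as 6.89% of all rows did. Rank 6 had the largest of these differences (1.01 ± 0.21, SE, adjusted p = 0.0794), and its arrays did not overlap. In unaffected imiquimod skin 0.0076% of all rows were called, and 1 member and 9.71% of all rows passed an unadjusted p under 0.05. In unaffected recovery skin 0% of all rows were called, and 0 members and 3.04% of all rows passed it.

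Whether a response itself differed between genotypes was tested as the cKO difference minus the WT difference. Limma called 0 of 20 members for imiquimod, 0 for recovery and 0 for wax, where 0.0038%, 0.137% and 0.0494% of all rows were called. An unadjusted p under 0.05 was found in 2 members for imiquimod (4.19% of all rows), 4 for recovery (8.84%) and 1 for wax (2.48%). For recovery these 4 were ranks 9 and 6 with the larger difference in cKO mice (1.95 ± 0.47 and 1.37 ± 0.29, SE, adjusted p = 0.214 and 0.148) and ranks 2 and 3 with the smaller one (-1.49 ± 0.56 and -1.16 ± 0.48, SE, adjusted p = 0.498 and 0.528). A larger or smaller response of these members in cKO mice is thus not shown after adjustment over all rows.

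**Figure D5:**
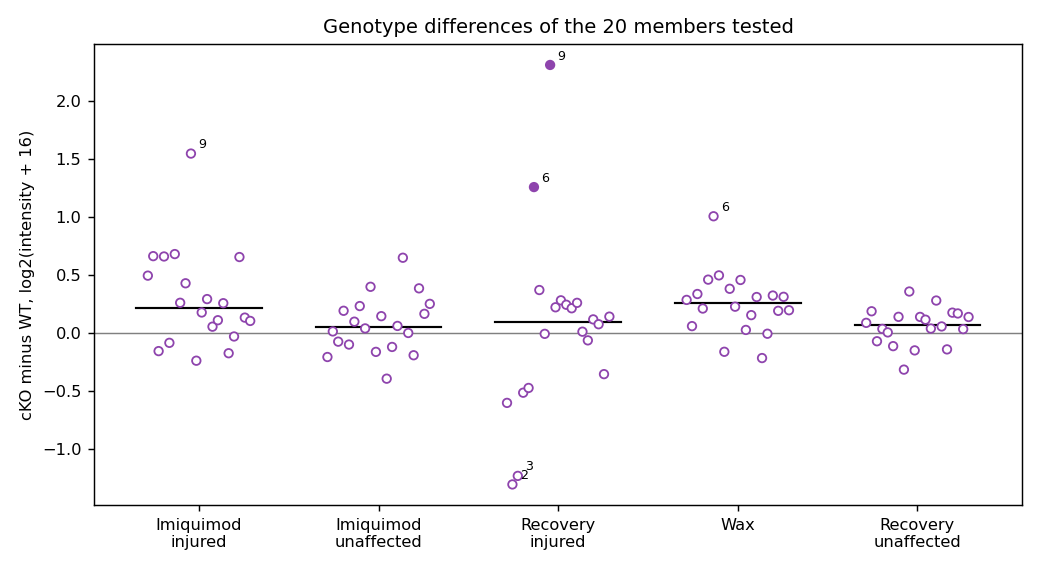
Difference between cKO and WT mice (y axis, log2 scale) of the 20 tested members in each of the 5 conditions. Points are members in order of rank, filled where limma called them, and lines are medians. The filled points are ranks 9 and 6 in injured recovery skin; members differing by more than 0.9 are numbered.

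To read the pattern in arrays that did not choose the rows, the rule was applied to 1 genotype and the rows were followed in the other. In WT arrays alone 122 rows met it. In cKO arrays 95 of these had an imiquimod difference of at least 1 and 104 a recovery difference of at least 0.5. Only 45 had a wax difference under 0.4, where 91.3% of all distinct rows did. The shares of all rows past the imiquimod and recovery limits were not counted for cKO mice alone. All 3 conditions held in the 22 members. Limma called 92 of the 122 raised by imiquimod and in recovery of cKO mice (75.4%), where 9.24% of all rows were, in a fit with no filter on dim rows (88 of 110 with the filter, where 13.1% of all rows were). It also called 44 of them (36.1%) higher after wax stripping in cKO mice, where 8.23% of all rows were, and 19 had a wax difference there of 1 or more, up to 5.76. A fit with the filter gave 47 of 110 higher after wax, and 26 of 110 without wax-stripped cKO replicate 1.

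The same step from cKO to WT mice ran differently. Of 71 rows that met the rule in cKO arrays alone, 65 had a wax difference under 0.4 in WT mice. That is near the share of all distinct rows under this limit in WT mice, 92.1%. There 38 of the 71 met the imiquimod limit and 43 the recovery limit. The shares of all rows past these limits were not counted for WT mice alone. Limma called 33 of the 71 (46.5%) raised by imiquimod and in recovery of WT mice, where 6.88% of all rows were (32 of 57 with the filter, against 9.94%), and 1 (1.41%) higher after wax stripping, where 7.35% of all rows were. Rows chosen as unmoved by wax in WT mice were thus often raised by wax in cKO mice, and rows so chosen in cKO mice were seldom raised in WT mice. This lean was not particular to rows so chosen, but it was not found over the whole table. The wax difference was larger in cKO than in WT mice in 380 of the 442 other raised rows (86.0%) and in 19 of the 22 members (86.4%). Of all rows tested, 51.3% had the larger wax difference in cKO mice. The difference between the genotypes in the shares called was not tested.

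Single arrays gave a looser picture. Applied to replicate 1 arrays alone, the rule kept 12 rows, and on the replicate 2 arrays 10 of these met the imiquimod limit, 10 the recovery limit, 8 the wax limit and 5 all of them in both genotypes. Applied to replicate 2 arrays alone it kept 30 rows, and on the replicate 1 arrays 14 met the imiquimod, 23 the recovery and 16 the wax limit, and again 5 all of them. The shares of all rows that met each limit on single arrays were not counted. On all arrays the wax limit alone was met by 91.3% of distinct rows in cKO mice and 92.1% in WT mice. When each array was left out in turn the rule kept 18 to 30 rows, with 17 to 22 of the members among them. Ranks 1, 2, 4, 5, 11, 13 and 14 were kept in all 20 such fits, and rank 18 in the fewest, 15.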

How the data were processed

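The authors deposited 1 linear intensity per probe set and array. The arrays were of the Affymetrix Gene ST kind, per the labels' protocols, and the submitters' processing notes name Affymetrix Expression Console and PLIER. Versions and normalization were not given in the sources used here. Array 75th percentiles lay between 9.01 and 9.18 on the log2(intensity + 16) scale, so values were used as deposited. Of 35556 rows, 476 with values identical to an earlier row were removed. Folds are on the log2(intensity + 16) scale, which understates changes of dim rows. Rows with a mean below the 25th percentile were left out of the tests, which left 26310 rows and 20 of the 22 members.

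Tests used limma 3.58.1 in R 4.3.3: a model of 10 group means over all 20 arrays, eBayes, and Benjamini-Hochberg adjustment over all rows, with a threshold of 0.05, in 14 comparisons. The model was tested on simulated data in which every group of a row had the same spread. That does not hold for members such as rank 2, so the simulation cannot vouch for calls where the groups differ in spread. Precision is limited by the 2 arrays per group. The p-values and SE use 1 spread per row, pooled over all 10 groups and drawn by eBayes toward that of other rows. They do not measure the spread of the compared groups alone, so a group whose 2 arrays lie far apart gets no wider error. Members and comparisons were chosen with earlier results of these data known. Members described singly are ranks 1 to 6, those with extreme recovery ratios, wax differences or unaffected levels, and called ones; planned gene and marker lists needed names and were not run. Alternatives were pseudocounts of 1 and 64, quantile normalization, other filters, trend and robust eBayes, only the arrays of a comparison, a replicate block, and leaving out arrays.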

Additional observations from a re-analysis of the deposited data

Results flagged for a closer look

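In 9 cases limma called the recovery difference of a member smaller than its imiquimod difference (adjusted p under 0.05). In cKO mice these were rank 1 (-3.47), rank 2 (-3.30), rank 3 (-2.42), rank 4 (-2.36), rank 13 (-0.70) and rank 14 (-0.66), on the log2 scale. The call for rank 14 did not hold in any fit that left out 1 array of the comparison. In WT mice they were rank 6 (-1.25), rank 10 (-0.99) and rank 13 (-0.70). Of all rows 5.21% in cKO mice and 2.28% in WT mice were called lower, and of the other raised rows 8.78% and 10.2%. Rank 13 was called in both genotypes, with almost the same value. These differences are built from the values that chose the members, and the rule, with its lower threshold for recovery, favours a smaller recovery difference, so the calls are not independent of the choice. Day, experiment and labelled sex differ between the time points as well and cannot be told apart. In the rows that parted the labelled sexes, injured recovery arrays lay on the female side and unaffected recovery arrays on the male side. The part of this in the recovery difference was not tested.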

How the results depend on the processing

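The number of rows that meet the rule, 22, became 47 with wax set against unaffected imiquimod skin, 71 on cKO arrays alone, 122 on WT arrays alone, 12 on replicate 1 arrays alone, and 58 without the recovery condition, an alternative chosen after seeing the data. Other settings kept it between 18 and 30, leaving out each array included; 18 members remained with a pseudocount of 1, 14 with 64 and 16 after quantile normalization.

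With only the arrays of the comparison, limma called 1 member by genotype after wax (0 with all arrays), 0 in injured recovery skin (2), 1 in the WT recovery minus imiquimod test (3), 1 in each genotype for wax against unaffected imiquimod skin (2 in cKO, 0 in WT mice) and 0 between unaffected areas of cKO mice (2). Quantile normalization gave 4 for wax against unaffected imiquimod skin in cKO mice and 1 between unaffected areas of WT mice. The filter at the 50th percentile gave 1 for wax against unaffected imiquimod skin in WT mice, and 21 of 34 in place of 32 of 57 tested rows chosen on cKO arrays and called in WT arrays, fewer rows being tested. Between unaffected areas of cKO mice 1 was called with a pseudocount of 1, with no filter and without the injured recovery arrays. The cause of these shifts was not tested.

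Leaving out each array gave 0 to 1 call by genotype after wax and in injured imiquimod skin, 0 to 3 in injured recovery skin, 0 in both unaffected areas, 0 to 1 for the recovery response between genotypes and 0 for the other responses. It gave 3 to 8 (cKO) and 0 to 10 (WT) for recovery minus imiquimod, 0 to 3 (cKO) and 0 to 2 (WT) for wax against unaffected imiquimod skin, and 0 to 2 (cKO) and 0 (WT) between unaffected areas. Rows chosen on the other genotype gave 78 to 90 calls in cKO and 22 to 34 in WT arrays, and 26 to 42 after wax in cKO arrays. Of the 15 single-member calls 0 reversed under any setting, and 3, ranks 1, 2 and 3 in the cKO recovery minus imiquimod test, were never lost.

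The labels number replicates alike in all groups but do not say that a number marks a shared mouse or day. Deviations of same-numbered arrays correlated at -0.04 (cKO) and -0.18 (WT) between the imiquimod areas and at 0.06 (cKO) and 0.03 (WT) between the recovery areas. Between genotypes they correlated at -0.26 (wax), 0.08 and 0.29 (injured and unaffected imiquimod skin), and 0.17 and 0.23 (injured and unaffected recovery skin). With the replicate number as a block (replicate block) the counts were 5 in place of 6 in the cKO recovery minus imiquimod test, 87 in place of 88 and 34 in place of 32 for rows chosen on the other genotype, 45 in place of 47 after wax, and as before in the other tests.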
